A study of Homo sapiens with 10 samples.

Results

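RNA from H441 cells transfected with a plasmid for full-length human TET1 was compared with RNA from untreated H441 cells over all genes of a table of raw read counts. H441 is an established human lung adenocarcinoma line with features of club and alveolar type 2 cells. The comparison used 5 of the 10 libraries of the study: 2 from cells with transient TET1 overexpression (OE 1 and 2) and 3 from untreated wild-type cells (WT 1 to 3). A second control, 2 libraries titled Lipo (Lipo 2 and 3) and labelled as untreated wild type, was then set in place of WT, and each change was described as present, absent or opposite with that control. The labels do not explain the word Lipo. All of these groups were the same line in the same serum-supplemented medium, and 3 libraries of TET1 knockout cells entered only the shared estimate of error. OE differed from WT both in having been transfected and in carrying TET1, so these cannot be told apart in this comparison. The sources used here do not give the promoter of the plasmid, the transfection reagent or the time after transfection.

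TET1 is a dioxygenase that oxidises 5-methylcytosine in DNA, the first step of one route of demethylation, and TET2 and TET3 are its relatives. Foreign nucleic acid in a cell is detected by sensors such as RIG-I, MDA5 and cGAS. These switch on interferon genes, and secreted interferons act through JAK kinases and STAT and IRF factors on genes with an interferon-stimulated response element. Alveolar type 2 cells make the lipids and proteins of surfactant.

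Total counts were 20994462 and 22443266 in OE, 22563999 to 25981097 in WT, and 24602887 and 22513656 in Lipo. Mitochondrially encoded genes took 4.81% ± 0.107 of counts in OE (SD, n = 2), 5.71% ± 0.387 in WT (n = 3) and 8.38% ± 0.480 in Lipo (n = 2). By chi-square per degree of freedom between counts, WT 1 stood apart from WT 2 and WT 3, at 42.8 and 46.6. The same measure was 6.36 between WT 2 and WT 3 and 4.83 between the OE libraries. By root mean square log2 difference over tested genes, the OE libraries were the furthest apart within a group, at 0.644. That difference was 0.572 and 0.577 between WT 1 and WT 2 and 3, 0.485 between WT 2 and WT 3, and 0.562 between the Lipo libraries. The labels do not say that libraries of a group came from separate cultures, so p-values measure the spread between these libraries, which may be technical. Epithelial markers (EPCAM, CDH1 and 4 keratins) summed to 11247 to 12373 CPM (counts scaled to a common library size) in WT and to 13046 and 13171 CPM in OE. NKX2-1 and NAPSA, which mark lung adenocarcinoma, and the surfactant genes SFTPB, SFTPA1 and SFTPA2 were present in every library. SFTPC, SFTPD and SCGB3A2 of the same list were at most 0.573 CPM in WT, Lipo and OE. The club cell marker SCGB1A1 was listed at 0 in every library. Genes that every cell uses, such as the ribosomal protein gene RPS25 and MIF, were also listed at 0 in every library, so a listed 0 here may not mean that a gene was not expressed. Of 8 leukocyte markers 3 were listed at 0 in every library, and the list summed to at most 3.40 CPM. Fibroblast markers summed to 177 to 289 CPM in WT, 183 and 170 in Lipo, and 343 and 351 in OE. Most of this was COL1A1 (302 and 313 CPM in OE), and 5 of the 8 fibroblast markers were listed at 0. Endothelial markers summed to 83.3 to 119 CPM, mostly from KDR.

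TET1 (ENSG00000138336, chromosome 10, 68560656 to 68694482, plus strand, GRCh38) was the gene with the highest rise. It had 0.0866, 0.267 and 0 CPM in WT 1 to 3, from 2, 7 and 0 reads, and 882 and 957 CPM in OE. The OE and WT libraries were far apart, with a log2 change of 12.79 ± 0.41 (SE; adjusted p = 1.36e-11, edgeR), and of 14.18 without WT 2. Lipo libraries had 1 TET1 read in all, and the ratio of OE to Lipo was 42305 (exact 95% interval 7592.5 to 1671020, counting error only). The related enzymes did not pass the test with WT. TET2 was 34.7 ± 2.06 CPM in OE and 33.0 ± 2.66 in WT (log2 change 0.07, 95% interval -0.34 to 0.48, adjusted p = 0.820, edgeR), and TET3 was 39.4 ± 6.14 and 50.1 ± 5.65 CPM (log2 change -0.34, interval -0.71 to 0.02, adjusted p = 0.160).

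Of 15832 genes tested, 3953 differed between OE and WT at an adjusted p under 0.05 (25%), 1954 of them higher in OE (12.3%) and 1999 lower (12.6%). Changes of at least 2-fold were called for 738 higher and 807 lower genes. The median log2 change over all genes tested was -0.03. The number of calls rested on both OE libraries: it was 1622 without OE 1 and 1826 without OE 2, and 3598 without WT 1. With Lipo as control, 1950 genes were called (12.3%), 1075 higher (6.79%) and 875 lower (5.53%), and Lipo itself differed from WT at 586 genes (3.7%), 209 higher (1.32%) and 377 lower (2.38%). The OE libraries enter both comparisons, so a change found with both controls is not found in separate samples. Because the difference between the comparisons is that of Lipo with WT, this last test says whether a change depended on the control.

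Of the 3953 genes, 1555 (39.3%) were also called with Lipo in the same direction, 850 higher and 705 lower. Another 2389 were not called with Lipo. For 305 of these (7.72%; 105 higher and 200 lower in OE) Lipo had moved from WT in the same direction as OE and passed its own test, so the change is described here as absent with Lipo. For the other 2084 (52.7%) neither the change with Lipo nor the difference between the controls was called, and their dependence on the control was not determined. Of the 998 higher genes among them 22 had the opposite sign with Lipo, and of the 1086 lower genes 25. Their median log2 change was 0.67 with WT and 0.37 with Lipo for the higher genes, and -0.78 and -0.43 for the lower. Opposite calls with the 2 controls were made for 9 genes (0.228%). Among changes of at least 2-fold, 482 of 738 rises (65.3%) and 333 of 807 falls (41.3%) were called with both controls. The count of 305 was 58 without Lipo 2, 27 without Lipo 3 and 184 to 191 without WT 2, WT 3, OE 1 or OE 2. It was 527 with DESeq2, 536 without a filter on low counts and 707 with only the OE, WT and Lipo libraries in the fit. The count of 1555 was 672 and 608 without Lipo 2 and 3, 572 and 640 without OE 1 and 2, and 2336 with only the OE, WT and Lipo libraries in the fit.

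**Figure D1:**
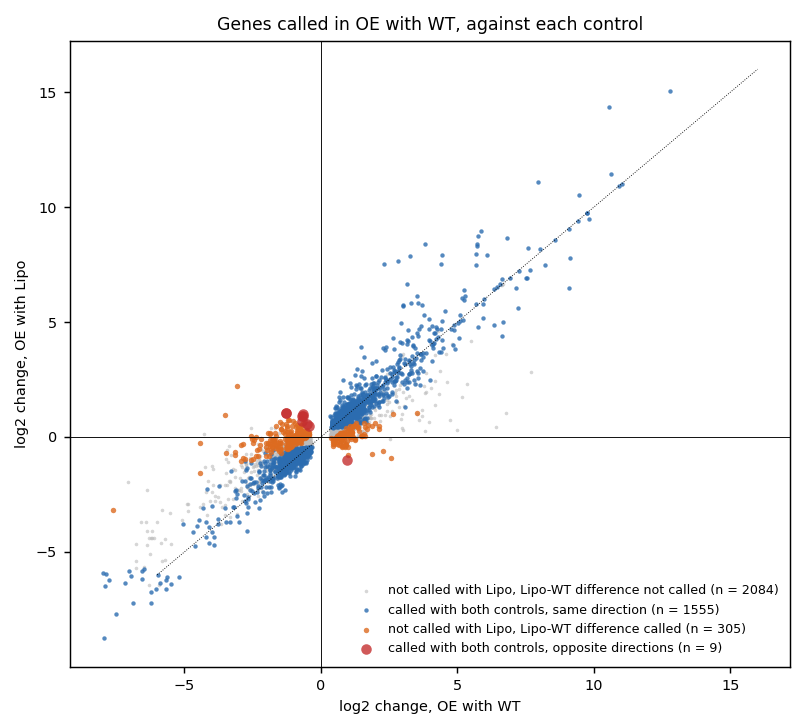
Fitted log2 change of OE with Lipo (vertical axis) against that of OE with WT (horizontal axis) for the 3953 genes called with WT, 1 point per gene, with a dotted line of equal change. Most of the 1555 blue genes lie along the line, and the 9 red genes lie in the quadrants of opposite sign. The 305 orange genes have medians on the vertical axis of 0.04 for rises and -0.09 for falls. Some of them lie well off 0, such as IL21R at 1.04 and ATG16L2 at -0.97, since not called does not mean unchanged. Fitted changes of genes with no counts in a control depend on the prior count.

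Genes that rose with both controls were led by interferons and interferon-stimulated genes. The promoters of 4 of them are shown because they hold the interferon response motif searched for here, 2 copies of GAAA with any 2 bases between them on either strand, within the 250 bases before the RefSeq transcription start (GRCh38.p14, written 5′ to 3′ on the strand of the gene). Capitals mark each match, and a match on the opposite strand reads as 2 copies of TTTC. The windows are chr19:39296157-39296406 (plus strand) for IFNL1, chr3:187368135-187368384 (plus) for RTP4, chr4:76023498-76023747 (minus) for CXCL10 and chr10:89327747-89327996 (plus) for IFIT3.
IFNL1: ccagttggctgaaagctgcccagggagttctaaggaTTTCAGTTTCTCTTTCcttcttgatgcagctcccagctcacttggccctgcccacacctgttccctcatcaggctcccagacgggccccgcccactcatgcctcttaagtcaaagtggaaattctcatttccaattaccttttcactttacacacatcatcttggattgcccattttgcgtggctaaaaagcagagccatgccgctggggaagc
RTP4: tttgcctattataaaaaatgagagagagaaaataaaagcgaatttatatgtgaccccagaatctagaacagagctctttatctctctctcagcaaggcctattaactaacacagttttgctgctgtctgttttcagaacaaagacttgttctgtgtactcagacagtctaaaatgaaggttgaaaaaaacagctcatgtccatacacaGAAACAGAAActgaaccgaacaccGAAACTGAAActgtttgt
CXCL10: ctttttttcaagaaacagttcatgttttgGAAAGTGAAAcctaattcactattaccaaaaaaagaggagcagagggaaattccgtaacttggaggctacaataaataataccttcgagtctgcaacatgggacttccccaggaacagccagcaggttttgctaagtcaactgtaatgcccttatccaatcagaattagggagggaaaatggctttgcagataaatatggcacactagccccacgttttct
IFIT3: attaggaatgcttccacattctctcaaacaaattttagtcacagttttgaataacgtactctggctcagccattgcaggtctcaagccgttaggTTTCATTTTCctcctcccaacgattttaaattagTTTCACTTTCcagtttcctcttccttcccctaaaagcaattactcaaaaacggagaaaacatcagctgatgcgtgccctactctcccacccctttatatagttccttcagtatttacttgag
IFNL1 had 2 matches that overlap, RTP4 and IFIT3 had 2 separate matches each and CXCL10 had 1. Of other genes that rose with both controls, IFNL2, IFNL3 and IFI44L also had matches, whereas XAF1, RSAD2 and TET1 had no match. The motif was in 3.07% of the 27305 promoters of the RefSeq table and in 251 of the 10802 (2.32%) that belonged to tested genes. It was in 55 of 630 promoters (8.73%) of genes that rose with both controls, in 0 of 77 of those whose rise was absent with Lipo, and in 6 of 542 (1.11%) of those that fell with both. Among tested interferon-stimulated genes on the list used here, 26 of 43 promoters (60.5%) held it. A match describes the letters of the window and shows no binding.

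Type III interferons, the secreted ligands, were at or near 0 in both controls and appeared in OE. IFNL1 had 3 reads over the 3 WT libraries, 1 over the Lipo libraries and 3162 over the OE libraries, at a mean of 75.1 ± 4.38 CPM. Its ratio of OE to WT was 1808 (exact 95% interval 618 to 8773). IFNL2 and IFNL3 had no reads in any WT or Lipo library and 11.3 ± 0.927 and 10.4 ± 1.04 CPM in OE, at least 271-fold and 250-fold higher than WT against a floor of 3 counts over the group. These neighbouring genes are near copies of each other, so how reads were divided between them is uncertain, and DESeq2 did not call IFNL3 (adjusted p = 0.0556). Of 17 ligand and receptor genes listed, 9 were tested, and 5 were called higher with WT and with Lipo: the 3 ligands and the receptor chains IFNLR1 (10.5 ± 1.25 CPM in WT and 1.91-fold higher in OE, adjusted p = 0.00425, edgeR) and IFNGR2. With a stricter filter on low counts 2 of the 5 remained in the test and were called. The 3 ligands had almost no reads in either control, so they could only be called higher. IFNB1 was too low to be tested, with 15 and 6 reads in OE, 0, 0 and 1 in WT and 0 in both Lipo libraries.

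Of 53 interferon-stimulated genes tested, 52 rose in OE with WT and the same number with Lipo, where 12.3% and 6.79% of all genes were higher. Their median log2 change was 4.0 with WT and 4.02 with Lipo, against medians of -0.03 and -0.01 over all genes. Members with no or few reads in both controls could only be called higher, and they enter the count and the median. IFI27, with 0 reads in WT and Lipo and 81 and 73 in OE, is an example. GBP2 was the exception, at 10.0 CPM in OE and 12.8 in WT (log2 change -0.35, adjusted p = 0.211, edgeR). OAS2, which makes the activator of RNase L, had 1.95, 1.37 and 1.88 CPM in WT, 2.75 and 1.55 in Lipo, and 1551 and 1574 in OE (log2 change 9.82 ± 0.23, adjusted p = 4e-13). IFIT3, a partner of the RNA-binding IFIT1, had 2.41 to 4.37 CPM in WT, 5.83 and 4.74 in Lipo, and 929 and 947 in OE. In OAS2 and IFIT3 alike the OE libraries lay more than 100 times above every control library.

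The other genes with the highest rises were of the same kind. RSAD2 (viperin) went from 0.371 ± 0.134 CPM in WT to 264 ± 10.3 in OE. CXCL10, a chemokine that attracts T cells, went from 0.0798 ± 0.0766 to 48.7 ± 2.87 CPM, and its log2 change of 9.11 was 9.95 without WT 2. XAF1, a pro-apoptotic protein, stood at 113 ± 8.56 CPM in OE against 0.0727 ± 0.0668 in WT (log2 change 10.56, 9.94 without WT 2 and 11.26 without WT 3). RTP4 and APOBEC3A, a chaperone of receptors and a cytidine deaminase, had no reads in WT or Lipo and were each at least 113-fold higher in OE. ZBP1, a sensor of Z-form nucleic acid, had 1 read over WT and 453 over OE (ratio 777, exact 95% interval 139 to 30764), and the lysosomal transporter SLC15A3 had 1 read over WT and 10.4 ± 2.95 CPM in OE (ratio 757, interval 135 to 29951). IFNL1, ZBP1 and SLC15A3 moved by over 1.5 times with 1 library: the fitted log2 changes of ZBP1 and SLC15A3 were 9.13 and 9.08, and 10.96 and 10.92 without WT 1, and that of IFNL1 was 10.64, 10.04 without WT 2 and 13.77 without WT 3. SLC15A3 was not called with Lipo by DESeq2 (adjusted p = 0.0909).

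Of 18 tested nucleic acid sensors and adaptors, 14 rose with WT and 13 with Lipo. IFIH1, which encodes MDA5, went from 32.7 ± 1.72 CPM in WT to 312 ± 3.14 in OE (9.54-fold), and SAMHD1, IFI16 and DHX58 rose with both controls too. MAVS, the adaptor of the RNA sensors, was the 1 lower member (log2 change -0.43), a call lost without WT 2, WT 3, or any 1 Lipo or OE library. Among JAK, STAT and IRF factors, 12 of 19 rose with WT and 9 with Lipo, but 4 to 7 were called without WT 2, WT 3, OE 1 or OE 2. IRF1, a transcription factor of the interferon response, went from 12.2 ± 1.89 CPM in WT to 73.0 ± 1.90 in OE, a 6.01-fold rise (adjusted p = 5.66e-08, edgeR). STAT2 rose 2.67-fold and the feedback inhibitor SOCS1 by 2.60 on the log2 scale. IRF9 was listed at 0 in every library, as RPS25 was, so no level can be given for it.

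Genes of antigen presentation rose with both controls. In the class I pathway 12 of 17 tested members were higher with WT and 11 with Lipo. HLA-B, a class I heavy chain, had 3.16, 5.88 and 6.31 CPM in WT, 7.99 and 9.25 in Lipo, and 171 and 168 in OE (log2 change 5.04 ± 0.28, adjusted p = 7.82e-09, edgeR). HLA genes share long stretches of sequence, so the division of reads among them is uncertain. NLRC5, the class I transactivator, rose 7.90-fold and the peptide editor TAPBPL by 1.52 on the log2 scale. TAP1 and PSMB8 were likewise listed at 0 in every library and have no usable level. Of 13 class II pathway genes listed, 4 were tested (CD74, CTSS, CIITA and RFX5), and all 4 rose with both controls. None of these encodes a class II alpha or beta chain. The chain genes HLA-DRA, HLA-DRB1, HLA-DPA1, HLA-DPB1, HLA-DQA1 and HLA-DQB1 were listed at 0 in WT, Lipo and OE and have no usable level. CD74, the invariant chain, had 27.6 to 34.9 CPM in WT, 53.2 and 50.7 in Lipo, and 353 and 372 in OE, so Lipo lay above every WT library and below OE. The class II transactivator CIITA behaved alike at lower levels, with 0.720 ± 0.268 CPM in WT, 2.54 and 2.46 in Lipo and 6.18 ± 1.08 in OE. Its log2 change was 3.09 with WT and 1.30 with Lipo.

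Chemokine and NF-kB genes rose as well. Of 23 tested chemokines and cytokines, 18 were higher with WT and 16 with Lipo, with medians of 3.12 and 3.16 on the log2 scale. Those with no reads in either control, such as CSF3 (40 and 46 reads in OE), could only be called higher. CXCL8, a neutrophil chemoattractant, had 81.4, 42.7 and 40.4 CPM in WT, 89.3 and 98.2 in Lipo, and 918 and 933 in OE. IL23A rose 13.3-fold, IL32 15.4-fold and TNFSF10 (TRAIL, a death ligand) by 3.22 on the log2 scale with WT. Of 17 NF-kB subunits and feedback genes 15 rose with each control, among them the subunit RELB (7.59-fold), TNFAIP2 (8.36-fold) and the adaptor TRAF1 (10.4-fold). NFKBIZ was lower with WT (log2 change -0.81). Of 13 checkpoint and natural killer ligands, 8 were higher with WT, or 4 with either OE library left out. The T cell inhibitors LGALS9 and IDO1 rose by 4.46 and 4.32 on the log2 scale, and VTCN1 was lower with both controls, a call with WT that was lost without OE 1 or OE 2.

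**Figure D2:**
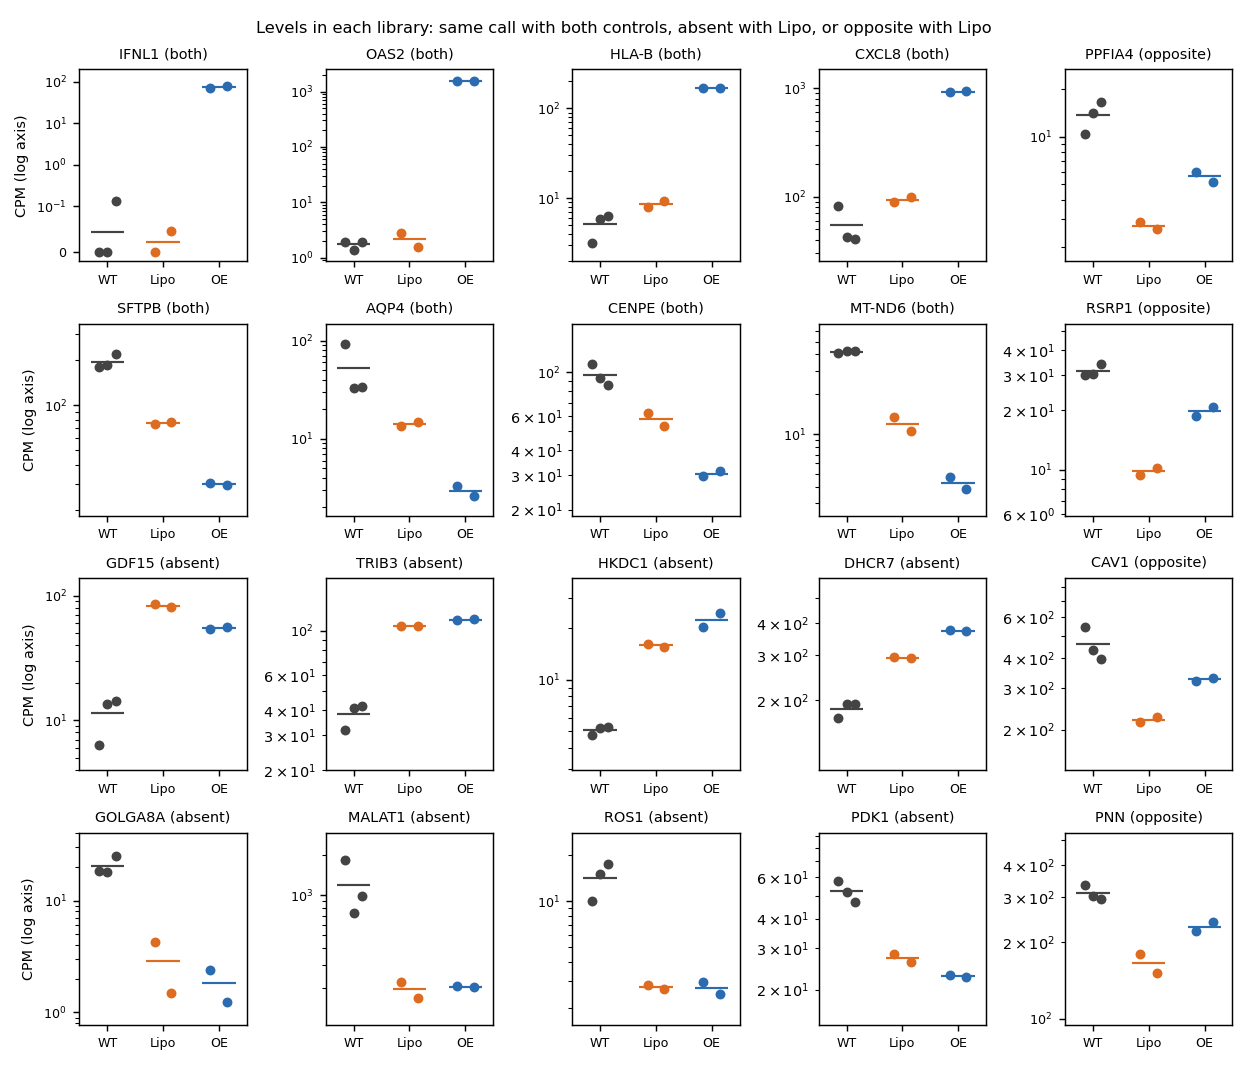
CPM of 20 genes in each library (points; log axes, linear near 0 for IFNL1; each panel has its own range) with the group mean as a line, for WT (n = 3), Lipo (n = 2) and OE (n = 2). For genes marked both, OE lies beyond WT and Lipo alike. For those marked absent, Lipo lies near OE. Those marked opposite have OE between Lipo and WT by definition, as for PPFIA4 at 5.20 and 6.01 CPM in OE.

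Matrix and epithelial genes outside immunity were among the rises found with both controls. The collagenase MMP13 had 38.5 to 40.4 CPM in WT, 20.4 and 19.5 in Lipo, and 443 and 463 in OE, so Lipo lay on the far side of WT from OE. Of 20 tested matrix proteases and inhibitors, 9 were higher with WT and 10 with Lipo, and 5 with WT without OE 2. PLAUR, the urokinase receptor, rose 4.90-fold and its ligand PLAU by 0.91 on the log2 scale. G0S2, an inhibitor of triglyceride breakdown, rose 10.2-fold, and the basal keratin KRT17 went from 0.748 ± 0.515 to 13.6 ± 1.47 CPM. Of 14 tested basal and squamous genes 5 were higher and 3 lower with WT, and 7 higher and 1 lower with Lipo. Over all genes 12.3% were higher and 12.6% lower with WT, and 6.79% and 5.53% with Lipo. Unlike KRT17, KRT15 had 1031 to 2675 reads in WT and 732 and 833 in OE. S100A2 had 1607 to 3939 reads in WT and 702 and 669 in OE. The lineage factors GATA6 and SOX9 rose by 1.52 and 1.06 on the log2 scale with WT and by 1.52 and 1.67 with Lipo. DKK1, a Wnt inhibitor, had 20.9 to 23.2 CPM in WT, 6.95 and 7.11 in Lipo, and 40.1 and 38.1 in OE, so its rise was 1.77-fold with WT and 5.56-fold with Lipo.

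Surfactant and other alveolar genes fell with both controls, by less with Lipo. Of 20 tested alveolar type 2 and club cell genes, 8 were lower in OE with WT, 8 with Lipo and 6 in Lipo with WT, where 12.6%, 5.53% and 2.38% of all genes were lower. SFTPB, a surfactant protein that spreads lipid films, had 180, 186 and 218 CPM in WT, 74.7 and 77.1 in Lipo, and 30.1 and 29.3 in OE. No groups overlapped, which for OE with WT the naming rule required. The log2 change of SFTPB was -2.71 ± 0.18 with WT, -1.35 ± 0.18 with Lipo and -1.36 ± 0.16 for Lipo with WT. SFTPA2, a surfactant collectin, fell 4.18-fold with WT and 1.63-fold with Lipo. Its near copy SFTPA1 fell 2.11-fold with WT, but with Lipo its log2 change was -0.22 (95% interval -0.53 to 0.08), and the division of reads between the copies is uncertain. HOPX, an alveolar cofactor, fell 3.52-fold and 1.93-fold. NKX2-1, which drives this programme, was 214 ± 1.39 CPM in OE and 259 ± 23.8 in WT (adjusted p = 0.204, edgeR). In bulk RNA, fewer cells of a type and less RNA per cell cannot be told apart.

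The water channel AQP4 had the greatest fall among the genes that met the naming rule, with 92.9, 32.6 and 33.7 CPM in WT, a mean of 14.3 in Lipo, and 3.30 and 2.62 in OE. WT 1 lay far above the other untreated libraries, and the log2 change of -4.16 ± 0.47 was -3.48 without WT 1. With Lipo it was -2.27 (adjusted p = 0.00759, edgeR; 0.0678 without Lipo 3, 0.0803 without OE 2 and 0.117 without a filter on low counts). LAMP3 went the other way within the alveolar list. This lysosomal membrane protein, also known as an interferon-inducible gene, went from 3.24 to 8.96 CPM in WT and 3.54 and 3.69 in Lipo to 223 and 225 in OE. SLPI was the other higher member, at a log2 change of 0.45 with WT and -0.09 with Lipo, a call lost without any 1 library of WT 2, WT 3, Lipo or OE.

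Other large falls found with both controls included 4 further genes of the naming rule. FMO5, a flavin monooxygenase, went from 5.29 ± 1.30 CPM in WT and 5.11 ± 2.01 in Lipo to 0.831 ± 0.0601 in OE, with log2 changes of -2.66 with WT and -2.61 with Lipo. ANKDD1A fell by 3.16 with WT and by 2.36 with Lipo on the log2 scale. ZPLD1 fell by 2.90 with WT, or by 4.47 without OE 1 and 2.16 without OE 2, and its call with Lipo was lost without WT 2, OE 2 or either Lipo library. ANKRD36C, one of several near copies, fell by 2.76 with WT, and its call with Lipo was lost without any 1 OE or Lipo library (adjusted p 0.0544 to 0.131).

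Genes of mitosis fell with both controls. Of 40 tested, 21 were lower in OE with WT and 14 with Lipo, with medians of -0.47 and -0.46 on the log2 scale and of 0.02 for Lipo with WT. Without OE 2 the count with WT was 13. CENPE, a kinesin of the kinetochore, had 86.1 to 111 CPM in WT, 61.9 and 53.2 in Lipo, and 29.7 and 31.3 in OE (log2 change -1.67 ± 0.19, adjusted p = 1.64e-05, edgeR). TOP2A, the topoisomerase of dividing cells, had 607 to 654 CPM in WT, 565 and 598 in Lipo, and 329 and 328 in OE. CENPF fell 2.16-fold with WT. Replication genes showed fewer calls, 11 of 40 lower and 3 higher with WT, and 4 lower with either OE library left out. CDKN1A, the p21 inhibitor of cyclin-dependent kinases, rose 2.98-fold with WT and 1.66-fold with Lipo. It was 1 of 15 higher genes among 34 tested p53 targets and apoptosis genes, with PMAIP1 (2.51-fold) and BAK1 (1.75 on the log2 scale), and 12 of the 34 were higher with Lipo.

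Mitochondrially encoded messenger RNAs differed between the controls. Of 13 tested, 6 were lower and 1 higher in OE with WT, 11 were lower with Lipo, and 9 were higher in Lipo with WT. The median log2 change was -0.11 with WT and -0.82 with Lipo. MT-ND6, the subunit read from the other strand of the mitochondrial genome (M, 14149 to 14673), had 40.8, 42.5 and 42.6 CPM in WT, 13.5 and 10.6 in Lipo, and 4.73 and 3.86 in OE, and fell with both controls. Reads on this gene cannot be told from those of transcripts on the opposite strand, since the sources used here do not give the strand setting of the counting. MT-CO3 fell by 0.81 with WT and by 1.39 with Lipo on the log2 scale. MT-ND3 rose 1.96-fold with WT, from 909 ± 100 to 1785 ± 47.5 CPM, but stood at 2032 ± 54.5 CPM in Lipo. Without OE 1 and OE 2 in turn, 3 and 2 of the 13 were called lower with WT. Of 71 cytosolic ribosomal protein genes 11 were lower with WT, near the share of all genes, and 2 to 7 without WT 2, OE 1 or OE 2. RPL3, the first of them by p, fell 1.55-fold.

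**Figure D3:**
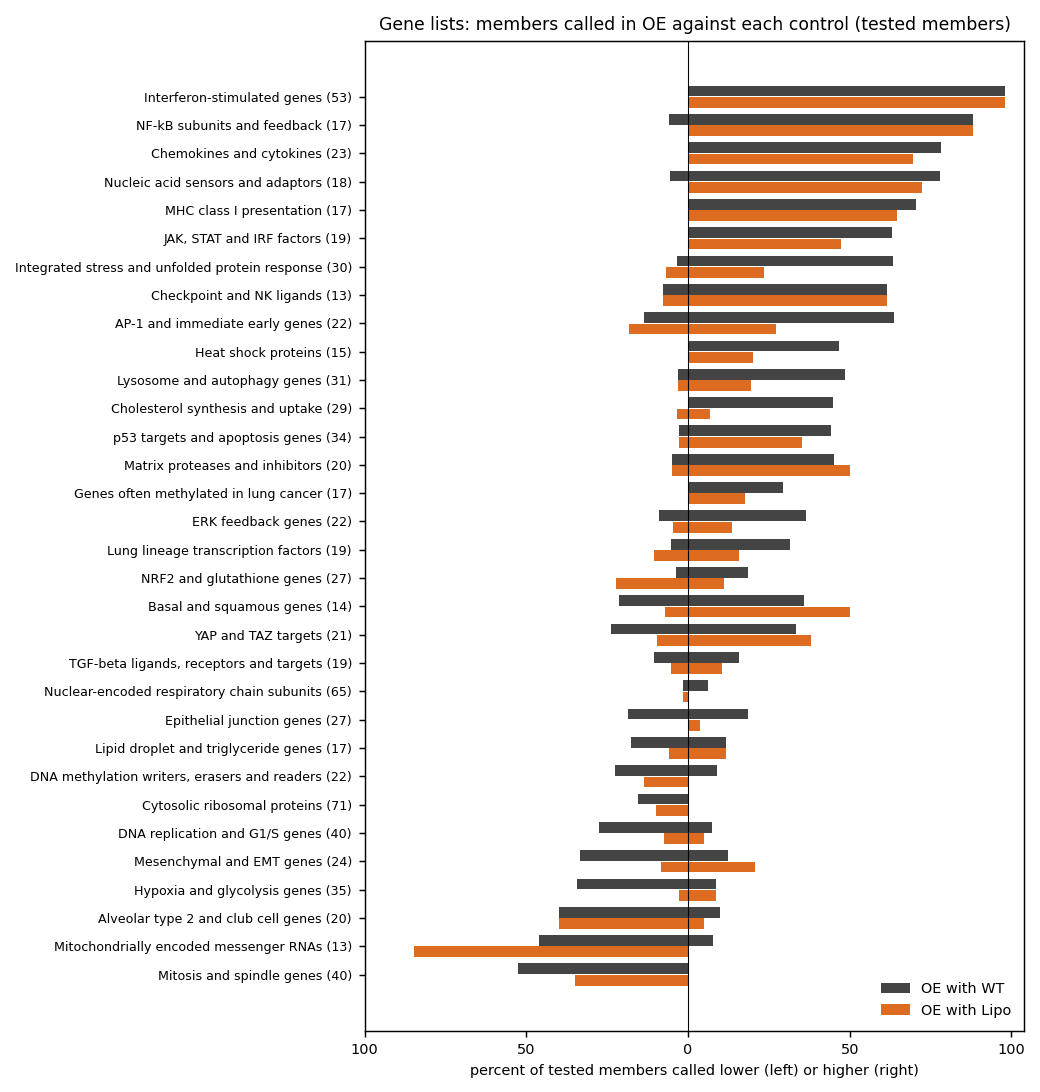
Percent of tested members (number in brackets) called lower, drawn to the left, or higher, drawn to the right, in OE with WT (grey) and in OE with Lipo (orange), for 32 gene lists. The bars for interferon-stimulated genes are alike with both controls, at 52 of 53, whereas those for the integrated stress response and for cholesterol genes shorten with Lipo, to 7 of 30 and 2 of 29. Over all genes the share called higher was lower with Lipo too, at 6.79% against 12.3% with WT.

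Some of the rises with WT were absent with Lipo as control. GDF15, a stress-induced cytokine, had 6.36, 13.6 and 14.4 CPM in WT and 53.9 and 55.8 in OE, a 4.79-fold rise (adjusted p = 0.000216, edgeR). Lipo had 86.0 and 80.5 CPM, above both OE libraries, and the log2 change of OE with Lipo was -0.60 (95% interval -1.36 to 0.15). Lipo was itself 7.26-fold higher than WT. HKDC1, a hexokinase-like enzyme, had 4.72 to 5.26 CPM in WT, 16.2 and 15.6 in Lipo, and 20.3 and 24.6 in OE. Its log2 change was 2.14 with WT and 0.50 with Lipo (adjusted p = 0.175). IL21R, a cytokine receptor, rose 11.5-fold with WT, and with Lipo its log2 change was 1.04 (interval 0.19 to 1.90, adjusted p = 0.108). Its test of Lipo with WT was lost without Lipo 3 (adjusted p = 0.0864).

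Genes of the integrated stress response formed a group of such rises. This pathway slows translation and raises the transcription factors ATF4 and CHOP when amino acids run short or proteins misfold. Of 30 tested genes of the integrated stress and unfolded protein response, 19 were higher in OE with WT, 7 with Lipo and 10 in Lipo with WT. Of the 19, 7 were higher with both controls, 7 were absent with Lipo and 5 were not determined. TRIB3, a pseudokinase induced by CHOP, had 31.9, 40.8 and 41.9 CPM in WT, 105 and 106 in Lipo, and 113 and 115 in OE, and rose 2.97-fold with WT (log2 change with Lipo 0.11, interval -0.30 to 0.52). CHAC1, which degrades glutathione, had 17.5 to 32.0 CPM in WT, 80.3 and 77.5 in Lipo, and 77.8 and 83.6 in OE, so that OE and Lipo overlapped, and its test of Lipo with WT was lost without Lipo 3 (adjusted p = 0.0619, edgeR). The amino acid transporter chain SLC3A2 and the mTORC1 inhibitor DDIT4 rose by 1.32 and 1.05 on the log2 scale with WT, and with Lipo their log2 changes were 0.47 and -0.02. CHOP itself (DDIT3) rose 2.64-fold with WT and 1.59-fold with Lipo. PPP1R15A, the phosphatase subunit that restores translation, had 182 to 199 CPM in WT, 295 and 266 in Lipo, and 699 and 704 in OE, so it rose with both controls. EDEM1 was the 1 lower member, with both.

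Cholesterol genes were higher with WT, with few calls against Lipo. Of 29 tested genes of synthesis and uptake 13 were higher with WT, or 7 with either OE library left out, 2 with Lipo and 4 in Lipo with WT. Of the 13, 2 were higher with both controls, 3 were absent with Lipo and 8 were not determined. Over all genes 12.3% were higher with WT, 6.79% with Lipo and 1.32% in Lipo with WT. INSIG1, a sterol sensor of the endoplasmic reticulum, had 132 to 139 CPM in WT, 202 and 212 in Lipo, and 232 and 229 in OE. The synthesis enzymes DHCR7 and MSMO1 rose 2.02-fold and 1.90-fold with WT, and with Lipo their log2 changes were 0.35 and 0.37 (adjusted p = 0.144 and 0.0769, edgeR). SQLE and HMGCS1 were the 2 called higher with both controls. The iron storage chains differed: FTH1 rose 2.18-fold with WT and 1.57-fold with Lipo, and FTL rose 1.93-fold with WT, with a log2 change of 0.14 with Lipo (interval -0.16 to 0.44).

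Some ERK feedback genes were among the other rises absent with Lipo. The phosphatases DUSP4 and DUSP5, which switch off ERK and related kinases, rose 3.28-fold and 2.33-fold with WT, and their log2 changes with Lipo were 0.54 and 0.49 (adjusted p = 0.184 and 0.107, edgeR). Of 22 tested ERK feedback genes 8 were higher with WT, or 5 with either OE library left out, and 3 with Lipo. Of these 22 genes 2 were lower with WT and 1 with Lipo. Over all genes 12.3% were higher and 12.6% lower with WT, and 6.79% and 5.53% with Lipo. DUSP6 went the other way from DUSP4 and DUSP5, with 14439 to 16274 reads in WT, 13811 and 12903 in Lipo, and 7459 and 7789 in OE. NRARP, an inhibitor of Notch signalling induced by it, had 2.16 to 3.59 CPM in WT, 7.83 and 7.89 in Lipo, and 7.84 and 8.14 in OE. HES1, a repressor that Notch induces, was 160 ± 59.2 CPM in WT, 538 ± 24.9 in Lipo and 315 ± 27.8 in OE. Its call with WT (adjusted p = 0.0320) was lost when any 1 library of WT 2, WT 3, Lipo or OE was left out (adjusted p 0.0597 to 0.172). CSRNP1, a nuclear factor, rose 2.80-fold and PLTP, which transfers phospholipids, 2.78-fold with WT, with log2 changes of 0.05 each with Lipo. The test of Lipo with WT was lost for NRARP and PLTP with either Lipo library left out (adjusted p 0.0747 to 0.134). INHBE, an activin subunit, rose 6.19-fold with WT. With Lipo its log2 change was 1.00 (adjusted p = 0.0731, and 0.0411 without WT 1), so its place among these genes is uncertain.

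**Figure D4:**
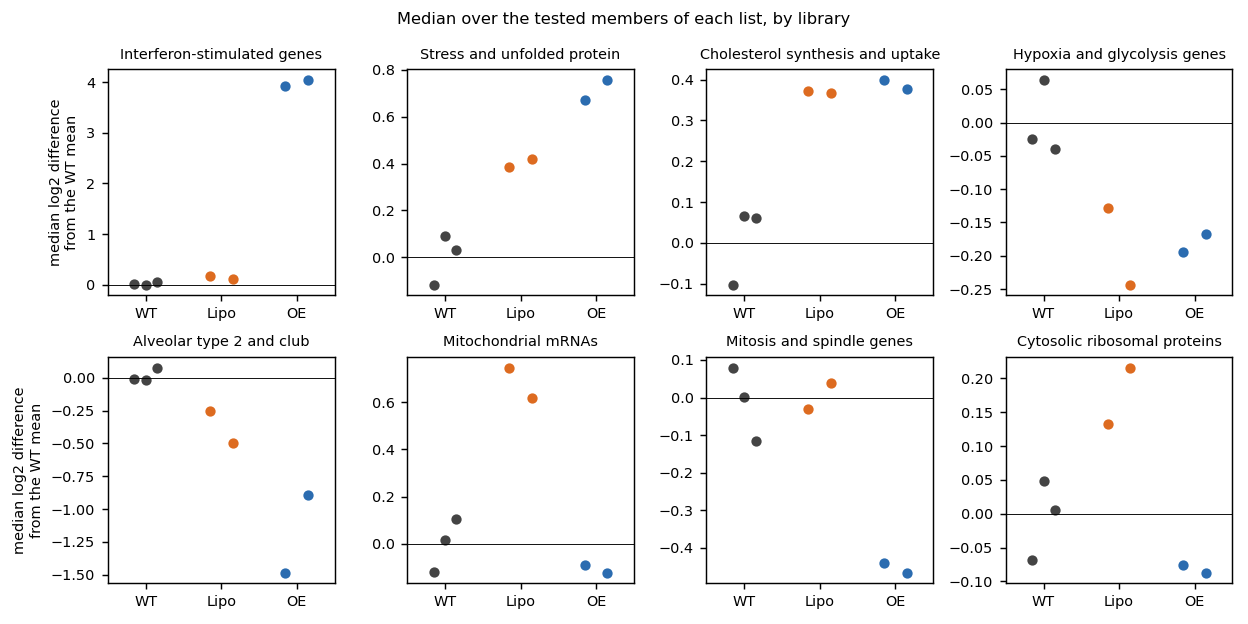
Median over the tested members of 8 gene lists of the log2 difference from the WT mean, 1 point per library (each panel has its own range; the line marks 0). For interferon-stimulated genes OE alone lies far above, at 3.93 and 4.05, for cholesterol genes Lipo and OE lie together, and for mitochondrial messenger RNAs Lipo lies apart from WT and OE.

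Falls absent with Lipo were more numerous, at 200 genes. ROS1, a receptor tyrosine kinase, had 9.96, 15.2 and 17.5 CPM in WT, 2.83 and 2.64 in Lipo, and 2.96 and 2.48 in OE. OE and Lipo overlapped, and the fall of 5.22-fold with WT (adjusted p = 2.52e-05, edgeR) came with a log2 change of -0.01 with Lipo (interval -0.66 to 0.64). OGT, which adds N-acetylglucosamine to nuclear proteins and binds TET enzymes, had 279 to 371 CPM in WT, 110 and 103 in Lipo, and 94.2 and 96.4 in OE. The long noncoding RNA MALAT1 of nuclear speckles had 1848, 737 and 983 CPM in WT, 223 and 169 in Lipo, and 206 and 202 in OE. WT 1 had the highest level. No OE library overlapped WT, but the naming rule required this. The call (adjusted p = 0.00889) was lost without OE 1, without OE 2 and without a filter on low counts (0.0523). GOLGA8A, 1 of a family of near-identical golgin genes, went from 20.5 ± 4.09 CPM in WT to 2.90 ± 1.97 in Lipo and 1.83 ± 0.830 in OE. CDK5RAP3, a regulator of the UFM1 pathway, went from 21.4 ± 3.75 to 4.19 ± 2.19 and 2.41 ± 0.354 CPM, and was called with Lipo too when low counts were not filtered (adjusted p = 0.0347). The test of Lipo with WT was lost without Lipo 3 for CDK5RAP3 (0.0506) and with either Lipo library left out for MALAT1 (0.226 and 0.348).

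The remaining named falls of this kind were smaller or less secure. MAMDC4, ATG16L2 (an autophagy gene) and ANKRD36 fell by 2.84, 2.77 and 2.20 with WT on the log2 scale and were at -0.33, -0.97 and -0.10 with Lipo. IMPDH2, an enzyme of guanine nucleotide synthesis, fell by 2.46, or by 3.23 without OE 1, and was at -0.15 with Lipo. PSG1 fell by 1.66 with WT, a call lost without OE 2 (adjusted p = 0.100, edgeR), VAMP1 by 1.42, lost without WT 3, OE 1 or OE 2 (0.0662 to 0.220), and RNF207 by 1.19, lost without OE 1 (0.0914). RNF207 stood at 0.72 with Lipo, on the other side of 0. EFEMP2, a fibulin, fell by 2.83 with WT and was at -1.10 with Lipo (adjusted p = 0.273), and its difference between the controls was not called (adjusted p = 0.0716), so it is among the undetermined genes. With either Lipo library left out, the test of Lipo with WT was lost for MAMDC4, ATG16L2, IMPDH2, PSG1 and VAMP1, and without Lipo 3 for ANKRD36 and RNF207.

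Several hypoxia genes fell with WT. Of 35 tested hypoxia and glycolysis genes 12 were lower with WT, 1 with Lipo and 9 in Lipo with WT. The count with WT was 3 without OE 1 and 5 without OE 2. PDK1, which keeps pyruvate from the mitochondria, had 47.2 to 57.8 CPM in WT, 28.3 and 26.2 in Lipo, and 23.0 and 22.7 in OE, a 2.29-fold fall with WT (log2 change with Lipo -0.25, interval -0.59 to 0.09). INSIG2 fell 1.91-fold with WT and was at 0.10 on the log2 scale with Lipo. EGLN3, an oxygen-sensing prolyl hydroxylase, fell 2.77-fold with WT and 1.67-fold with Lipo. Among mesenchymal genes, 3 were higher and 8 lower of 24 with WT, and 5 higher and 2 lower with Lipo. Over all genes 12.3% were higher and 12.6% lower with WT, and 6.79% and 5.53% with Lipo. The 3 higher mesenchymal genes with WT were thus near the share of all genes. S100A4 fell with both controls (3.21-fold and 2.40-fold) and ITGA5, the fibronectin receptor chain, rose with both (2.58-fold and 3.04-fold). Without OE 1 and OE 2 the counts with WT were 1 higher each, and 2 and 5 lower.

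Opposite calls were made for 9 genes, 8 of them lower in OE than WT and higher in OE than Lipo. By the definition of an opposite call, OE lay between the controls in each of them. PPFIA4, a liprin of synapses, had 10.3, 14.1 and 16.7 CPM in WT, 2.87 and 2.60 in Lipo, and 6.01 and 5.20 in OE (log2 change -1.29 with WT and 1.03 with Lipo, adjusted p = 0.00254 and 0.0357, edgeR). RSRP1, an arginine and serine rich protein, had 29.9 to 33.8, 9.41 and 10.3, and 18.6 and 20.7 CPM in the same order (-0.67 and 1.00). The naming rule required no overlap of OE and WT, and in both genes the Lipo libraries overlapped neither. ABCA4, a retinoid transporter, was at -0.70 and 0.90, the zinc finger protein ZNF431 at -0.69 and 0.68, caveolin CAV1 at -0.49 and 0.57, and the splicing-associated PNN at -0.43 and 0.48. CMAHP, a pseudogene, and ENSG00000291067, which has no symbol, completed the falls. These and FRAS1 are outside the naming rule and are named because they complete the count. FRAS1, a basement membrane protein, was the 1 gene higher in OE than WT and lower than in Lipo, with 1.73 to 1.93 CPM in WT, 6.49 and 8.25 in Lipo, and 4.19 and 3.08 in OE (0.97 and -1.02). The count of 9 was 0 without Lipo 3, OE 1 or OE 2, 1 without Lipo 2 and 5 without WT 2 or WT 3, and it was 25 when the knockout libraries were left out of the fit.

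Calls made with Lipo alone numbered 386, 217 higher and 169 lower in OE. For 97 of them the controls themselves differed.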

How the data were processed

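Total RNA of H441 cells was converted with a stranded low-input total RNA kit, per the labels' protocols. The authors deposited unnormalized whole-number read counts for each gene. Per the submitters' processing notes, HISAT2 2.1.0, FastQC, featureCounts, edgeR and GRCh38 were used, with no role or order, and the strand setting is not given in the sources used here. The table had 62710 entries; 1 without values and 2 columns matching no sample were left out, and some genes are not reported here. GENCODE release 29 gave types and positions for 15352 of the tested identifiers. Depth was 20994462 to 25981097 counts per library over the 10 libraries.

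edgeR 4.0.16 in R 4.3.3 was used: filterByExpr on the 4 groups (15832 genes kept), TMM scaling, and a robust quasi-likelihood fit over all 10 libraries with 6 residual degrees of freedom. Tests were two-sided, and p-values were Benjamini-Hochberg adjusted over all genes, with a threshold of 0.05. CPM uses TMM-adjusted library sizes, errors are SD over libraries, and folds are fitted. A group with 0 counts was given a floor of 3 counts, and ratios against 1 to 3 counts have exact 95% intervals. The fit was tested on simulated data. Genes with reads in OE alone could pass the filter, and these could only be called higher.

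The members, the 41 lists (1088 genes), the naming rule and the alternatives were chosen with earlier results of these data known. Named were TET1 to TET3; the 12 highest rises and 12 largest falls with WT among called genes that had at least 4 CPM in the higher group, no overlap, and a symbol that is not a clone, antisense, LINC or pseudogene name; the 10 rises and 10 falls absent with Lipo that differed most between controls; up to 8 opposite genes in each direction; and up to 4 list members of smallest p. List members named beyond these, and those named as exceptions to a count, are outside the rule. A gene absent with Lipo had an adjusted p of at least 0.05 there and Lipo with WT called in the same direction as OE with WT. Alternatives were scaling by library size alone or by RLE, DESeq2 1.42.0, no or a stricter filter, mitochondrial genes left out, fewer groups in the fit, all 5 wild-type-labelled libraries as control, a replicate block and each library left out.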

Additional observations from a re-analysis of the deposited data

How the results depend on the processing

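With no single library left out, the calls of OE with WT ran from 3615 calls with WT and Lipo pooled as the control to 5218 with the replicate block. RLE scaling, scaling by total counts (1611 higher and 2308 lower against 1954 and 1999, with the median of all genes at -0.09), DESeq2, the filters and leaving out mitochondrial genes gave 3781 to 4431. The calls of Lipo with WT, 586, became 1074 with DESeq2, 1100 without a filter on low counts and 1392 with only the OE, WT and Lipo libraries in the fit. With those libraries only, OE with Lipo gave 2995 calls instead of 1950, 2336 genes were shared instead of 1555 and 25 were opposite instead of 9.

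Leaving out 1 library at a time gave 1622 to 3598 calls for OE with WT, 673 to 2346 for OE with Lipo and 34 to 498 for Lipo with WT. It gave 572 to 1738 shared genes, 1050 to 2767 not called with Lipo and 0 to 10 opposite. The share of calls with WT that were also called with Lipo was lowest without Lipo 3 (608 of 3375) and highest without WT 1 (48.3%). With 1 library left in a group, that library is assumed to vary like the other groups.

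OE and WT libraries share the numbers 1 and 2 in their titles. Same-numbered deviations correlated at 0.0228 and 0.00553, and crossed pairs at -0.0228 and -0.00553. The deviations of 2 OE libraries from their mean are mirror images, so the crossed pairs had to give opposite signs. Whether same-numbered libraries shared a batch was not determined. The replicate block gave 5218, 2678 and 850 calls in the 3 comparisons, against 3953, 1950 and 586 without it. It also gave 15 opposite genes, and TET3 as lower in OE with WT (adjusted p = 0.0418, edgeR). Over single genes and lists, 4395 alternative values kept their direction and side of the threshold or, for counts, lay within 1.5 times, 130 lost the call, 12 gained it and 204 list counts moved by over 1.5 times. The cause was not tested.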

Other observations

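AP-1 and immediate early genes, transcription factors that respond to growth and stress signals within minutes to hours, split by the control. Of 22 tested, 14 were higher and 3 lower in OE with WT, and 6 higher and 4 lower with Lipo. Over all genes 12.3% were higher and 12.6% lower with WT, and 6.79% and 5.53% with Lipo, so the 3 lower with WT were near the share of all genes. MAFF, KLF4, KLF10 and ATF3 rose with both controls, by 1.53, 1.77, 1.08 and 2.12 on the log2 scale with WT and by 1.12, 1.31 and 1.40 for the first 3 with Lipo (ATF3 2.84-fold). IER3, which dampens NF-kB and ERK signals, rose 2.64-fold with WT, and with Lipo its log2 change was 0.24 (95% interval -0.27 to 0.75). FOS, NR4A1 and EGR2 were the 3 lower members, and all fell with Lipo too.

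Lysosome and autophagy genes were higher in OE with WT for 15 of 31 tested, and for 6 with Lipo; the count with WT was 6 without OE 1 and 9 without OE 2. OPTN, an autophagy receptor, rose 2.64-fold with WT and 3.19-fold with Lipo, whereas NPC1, which moves cholesterol out of lysosomes, rose 1.63-fold with WT and was at 0.07 on the log2 scale with Lipo. Over all genes 12.3% were higher and 12.6% lower with WT, and 6.79% and 5.53% with Lipo. Of 22 tested writers, erasers and readers of DNA methylation, TET1 not among them, 2 were higher and 5 lower with WT. With Lipo 3 were lower. Both rises lost their call with either OE library left out. Of 17 genes often methylated in lung cancer 5 were higher with WT, or 2 with either OE library left out.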
